A study of Mus musculus with 8 samples.

Results

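The sensors and transcription factors of the unfolded protein response were followed in white adipose tissue that lacked Sel1l in its adipocytes. They are 10 genes chosen by function: Ern1 (which encodes IRE1), its substrate Xbp1, Eif2ak3 (PERK), Atf6 and its paralog Atf6b, the related factors Creb3, Creb3l1 and Creb3l2, and the proteases Mbtps1 and Mbtps2 that cut ATF6 and its relatives. A probe set that names the gene and no other was found for 8 of the 10, out of 18820 genes compared, while Creb3 and Mbtps2 were not analysed here. Ern1 RNA was 1.33-fold higher in Sel1l-/- tissue and passed the test. Eif2ak3 and Creb3l1 were higher by a like amount without passing it, Atf6 was higher by less, and Xbp1, Atf6b, Creb3l2 and Mbtps1 overlapped between the groups.

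The 8 arrays came from 8 male mice on a C57BL/6 background, with the N and J substrains mixed, that had eaten the high fat diet D12492 for 5 weeks. In the 4 Sel1l-/- mice, floxed Sel1l was deleted by Cre driven from the adiponectin promoter, an adipocyte promoter, and the 4 controls are labelled wildtype (WT). The labels used here do not state the age, the fat depot, or whether the controls carried the floxed alleles or Cre. Fat tissue holds other cells in which this promoter does not drive Cre, and in bulk tissue fewer cells of a type and less RNA per cell cannot be told apart.

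Sel1l is the adapter of the ubiquitin ligase by which the endoplasmic reticulum (ER) disposes of misfolded proteins. When such proteins build up, 3 kinds of sensor in the ER membrane respond. IRE1 is an RNase and kinase that splices Xbp1 RNA, so that it encodes an active transcription factor, and it also cuts other RNAs at the ER. PERK phosphorylates the initiation factor eIF2α, which lowers translation overall while favouring that of ATF4. ATF6 moves to the Golgi, where the site-1 and site-2 proteases encoded by Mbtps1 and Mbtps2 release its cytosolic part to enter the nucleus, and the CREB3 family is handled in the same way. Adipocytes secrete proteins such as adiponectin and lipoprotein lipase, which are folded in the ER.

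Values are log2 intensities after RMA, a method that corrects background and makes the distributions of the arrays alike. A level of one gene was not set against that of another, since probe sets differ in sensitivity. Array medians lay between 6.05 and 6.14, and all 8 genes were above them on every array. Sel1l itself was 10.57 ± 0.07 in WT and 9.78 ± 0.21 in Sel1l-/- tissue (SD, n = 4 each), a log2 fold change of -0.79 (limma adjusted p = 0.0109). The labels give each mouse a code of a letter and a number. This call was lost when the code letter or the code number was fitted as a block (adjusted p = 0.151 and 0.0813), and held in all 8 fits without 1 array. Which part of Sel1l was deleted, and which the probes cover, is not stated in the labels, so this check cannot tell a deleted exon from a lower transcript. Adipoq, the gene of the adipocyte hormone adiponectin, was high in both groups, at 12.72 ± 0.15 in WT and 12.15 ± 0.24 in Sel1l-/- tissue (SD, n = 4 each).

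Ern1, the gene of the sensor IRE1, was the member that rose. In WT mice 1 to 4 it read 8.32, 8.34, 8.30 and 8.50, against 8.78, 8.79, 8.80 and 8.73 in Sel1l-/- mice 1 to 4. The lowest Sel1l-/- array lay 0.23 above the highest WT array, WT 4, and the 4 Sel1l-/- mice were within 0.07 of each other. Its mean rose from 8.36 ± 0.09 to 8.77 ± 0.03 (SD, n = 4 each), a log2 fold change of 0.41 with a standard error of 0.06 (95% interval 0.27 to 0.55, limma adjusted p = 0.0190). As a ratio this was 1.33-fold, with an interval of 1.21 to 1.46. The call did not hold with fewer arrays: the adjusted p was 0.0662, 0.0643 and 0.0558 without WT 1, 2 and 3, and 0.0567, 0.0711 and 0.0685 without Sel1l-/- 1, 2 and 3, while it stayed past the threshold without WT 4 (0.0160) or Sel1l-/- 4 (0.0271). The log2 fold change stayed between 0.39 and 0.45 in those 8 fits.

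Differences within the groups of mice that share a code in the labels were also read for Ern1. Their sign was fixed beforehand, since every Sel1l-/- array lay above every WT array, so only their size is given. Within the code numbers 5, 7 and 9, the Sel1l-/- value was 0.39, 0.42 and 0.49 above the WT value. Within the letter F, which alone holds both genotypes (1 WT and 2 Sel1l-/- mice), the difference was 0.29. Blocking on the code number gave a log2 fold change of 0.43 (limma adjusted p = 0.0871), and blocking on the code letter 0.29 (adjusted p = 0.391). The labels do not say what the codes mean, and WT 4, the single WT mouse of letter F, was also the WT array with the most Ern1 signal.

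**Figure D1:**
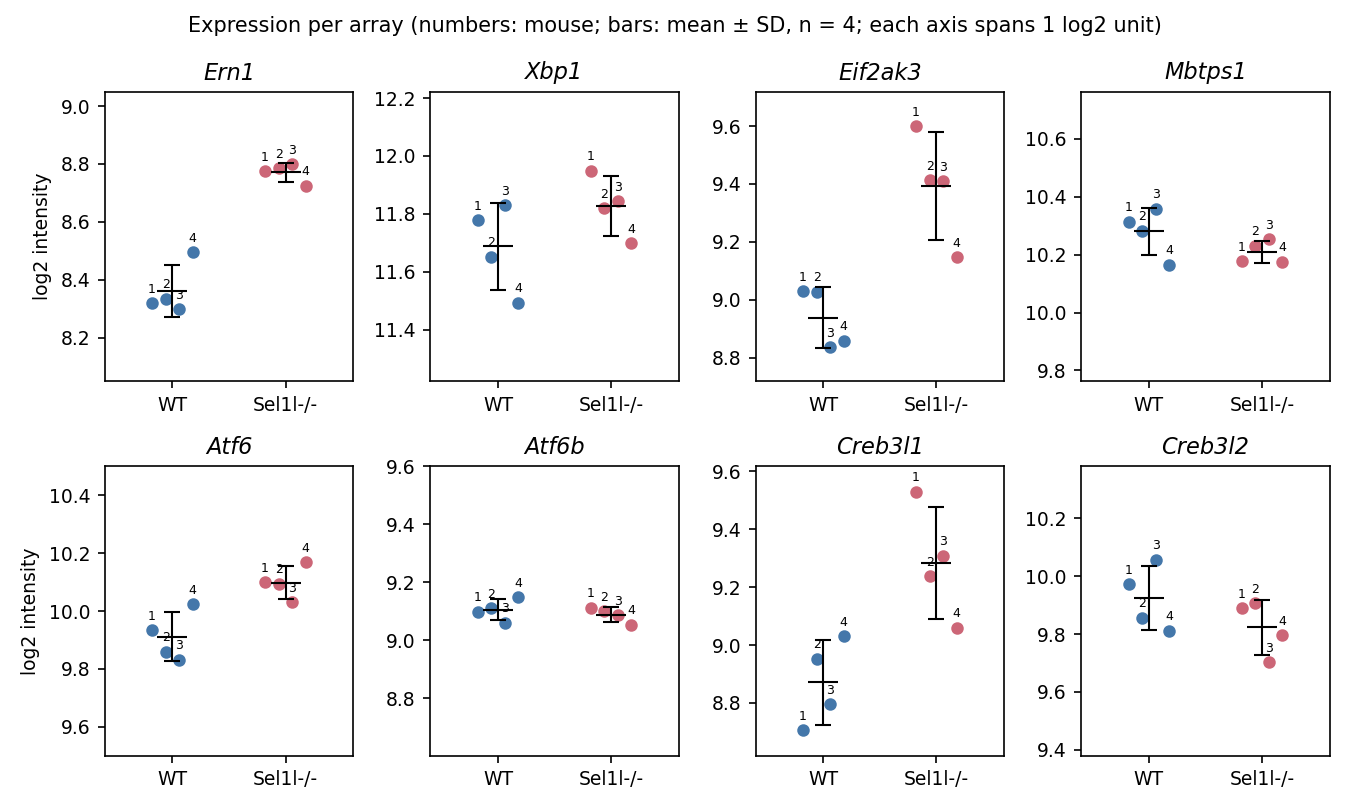
Log2 intensity (vertical axes, each spanning 1 log2 unit) of the 8 measured genes on each array, by genotype, with the mouse number beside each point and bars for the mean ± SD of 4 mice. Ern1, Eif2ak3, Creb3l1 and Atf6 have all Sel1l-/- arrays above all WT arrays, with a gap of 0.23 for Ern1 and 0.0073 for Atf6, and the other 4 genes overlap.

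Xbp1, whose RNA is the substrate of IRE1, did not pass the test. In WT mice 1 to 4 it read 11.78, 11.65, 11.83 and 11.49, against 11.95, 11.82, 11.84 and 11.70 in Sel1l-/- mice 1 to 4. Of the Sel1l-/- arrays, 2 lay above all WT arrays and 2 lay within the WT range. The log2 fold change was 0.14 with a standard error of 0.09 (limma adjusted p = 0.528), and its 95% interval ran from -0.06 to 0.34, or 0.957-fold to 1.27-fold. A doubling of the Xbp1 signal in the bulk tissue lies outside this interval, while a rise as large as 1.27-fold lies within it. The interval holds for the fit without a block and does not bound the change in adipocytes alone. The probe set summarises the transcript as a whole and does not separate unspliced from spliced Xbp1 RNA, so these values do not measure IRE1 activity. Blocking on the code letter gave 0.39 for Xbp1 (limma adjusted p = 0.379), above the upper end of that interval.

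Eif2ak3, the gene of the sensor PERK, had the largest difference of the 8 genes but more spread than Ern1. In WT mice 1 to 4 it read 9.03, 9.03, 8.84 and 8.86, against 9.60, 9.41, 9.41 and 9.15 in Sel1l-/- mice 1 to 4. No arrays overlapped, and Sel1l-/- 4 was the lowest of its group, 0.12 above the highest WT array. The mean was 8.94 ± 0.11 in WT and 9.39 ± 0.19 in Sel1l-/- tissue (SD, n = 4 each), a log2 fold change of 0.46 (standard error 0.10, 95% interval 0.23 to 0.68, 1.37-fold) with a limma adjusted p of 0.0691. The mice are numbered 1 to 4 in both groups. No label ties same-numbered mice, and this replicate number was used as a block on the basis of the values. With that block Eif2ak3 passed, with a limma adjusted p of 0.0330. It also passed without Sel1l-/- 4 (0.0253), when the dimmer 50% of genes were left out (0.0440) and with array weights (0.0268). Those are the only 4 of the 19 alternatives in which Eif2ak3 passed. In the other 7 fits without 1 array it did not pass (limma adjusted p up to 0.176, without Sel1l-/- 2). The same-numbered mice differed by 0.57, 0.39, 0.57 and 0.29 for numbers 1 to 4. Blocking on the code letter or the code number gave 0.65 or 0.45 (limma adjusted p = 0.242 and 0.235).

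The promoters of these 3 genes are shown because Ern1, Eif2ak3 and Xbp1 start or carry the IRE1 and PERK arms. The bases run 5′ to 3′ on the gene's strand and come from RefSeq, build GRCm38.p6. The window is the 250 bases before the start used in the RefSeq promoter table. For Eif2ak3 its last 31 bases are not printed, because the annotated gene begins there in RefSeq. Capitals mark CCACG, the part bound by ATF6 and XBP1 in ER stress elements, and CCAAT, the box bound by NF-Y beside it, on either strand.
Ern1 (chr11:106487797-106488046, minus strand): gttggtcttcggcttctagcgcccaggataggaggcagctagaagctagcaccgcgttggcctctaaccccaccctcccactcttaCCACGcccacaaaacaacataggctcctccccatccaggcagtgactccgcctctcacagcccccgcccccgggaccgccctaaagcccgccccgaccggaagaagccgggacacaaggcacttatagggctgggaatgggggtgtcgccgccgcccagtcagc
Eif2ak3 (chr6:70844265-70844483, plus strand): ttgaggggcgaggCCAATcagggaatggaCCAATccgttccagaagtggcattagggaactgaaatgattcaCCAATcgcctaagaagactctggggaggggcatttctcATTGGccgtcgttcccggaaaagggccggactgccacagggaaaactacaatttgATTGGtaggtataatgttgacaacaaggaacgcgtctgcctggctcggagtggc
Xbp1 (chr11:5520391-5520640, plus strand): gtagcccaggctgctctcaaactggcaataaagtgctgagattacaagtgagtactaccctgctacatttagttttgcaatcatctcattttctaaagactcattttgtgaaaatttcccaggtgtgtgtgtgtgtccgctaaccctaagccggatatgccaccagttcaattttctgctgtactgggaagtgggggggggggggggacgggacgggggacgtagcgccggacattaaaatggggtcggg

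The window searched was the 250 bases before the RefSeq start, on both strands, and 8 of the 10 genes had one (not Atf6 and Creb3l1). None of the 8 held a full ER stress element (CCAAT and CCACG with 9 bases between), which 0.113% of 32851 such windows of the genome table hold. None held the ERSE-II (ATTGG and CCACG with 1 base between, in 0.0304% of windows), the core of the UPRE that XBP1 binds (TGACGTG, 1.65%), the CRE (TGACGTCA, 1.55%) or the C/EBP-ATF element of ATF4 and CHOP (TTGCATCA, 0.791%). CCACG alone, which is part of both ER stress elements, stood once in the Ern1 window, once in that of Mbtps1 and 3 times in that of Creb3, where 28.3% of windows hold at least 1. The Eif2ak3 window held the CCAAT box 6 times, of which 5 are in the part printed. At least 1 is found in 33.8% of windows and at least 5 in 0.213%, and this box was searched for on its own only after the sequences had been seen. A match of letters is a description, and no match says only that these letters are not in this window.

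Atf6, the sensor that becomes a transcription factor by cleavage, differed by less. Its WT arrays read 9.93, 9.86, 9.83 and 10.02 and its Sel1l-/- arrays 10.10, 10.09, 10.03 and 10.17. The groups did not overlap, but only 0.0073 separated the highest WT array (WT 4) from the lowest Sel1l-/- array. The log2 fold change was 0.19 (standard error 0.06, 95% interval 0.04 to 0.33, 1.14-fold), with a limma adjusted p of 0.209, or 0.118 to 0.872 over the alternatives tried. Mice of letter F differed by 0.07, and those of numbers 5, 7 and 9 by 0.05, 0.27 and 0.26.

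Atf6b, the paralog of Atf6 that is a weaker activator, had nearly the same level on all arrays. In WT mice 1 to 4 it read 9.10, 9.11, 9.06 and 9.15, against 9.11, 9.10, 9.09 and 9.05 in Sel1l-/- mice 1 to 4. The log2 fold change was -0.02 (standard error 0.05, limma adjusted p = 0.913), with an interval of -0.13 to 0.10, or 0.914-fold to 1.07-fold. This was the narrowest interval of the 8 genes.

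Creb3l1, which encodes OASIS, a factor of the CREB3 family known for collagen secretion in bone and fibroblasts, differed as much as Ern1 but with wide spread. In WT mice 1 to 4 it read 8.71, 8.95, 8.80 and 9.03, against 9.53, 9.24, 9.31 and 9.06 in Sel1l-/- mice 1 to 4. The groups did not overlap, with 0.03 between Sel1l-/- 4 and WT 4. The log2 fold change was 0.41 (standard error 0.11, 95% interval 0.16 to 0.67, 1.33-fold), and the limma adjusted p was 0.124. The adjusted p ran from 0.0592 with array weights to 0.578 with the code letter blocked, so no alternative made it a call. The same-numbered mice differed by 0.82, 0.28, 0.51 and 0.03, so mouse 1 and mouse 4 were far apart. The median log2 fold change of 6 fibroblast and progenitor markers was -0.05, with 5 of 6 negative. They ran from -0.32 for Dpt to 0.23 for Pdgfra, with Col1a1 and Col3a1 both at -0.01. What these markers mean for Creb3l1 was not tested.

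Creb3l2, which encodes BBF2H7, a relative known for driving secretory genes in cartilage, went slightly the other way. In WT mice 1 to 4 it read 9.97, 9.86, 10.06 and 9.81, against 9.89, 9.91, 9.70 and 9.80 in Sel1l-/- mice 1 to 4. The log2 fold change was -0.10 (95% interval -0.27 to 0.07, limma adjusted p = 0.607), and 0.09 when the code letter was blocked. Mbtps1, the site-1 protease, read 10.31, 10.28, 10.36 and 10.17 in WT and 10.18, 10.23, 10.25 and 10.18 in Sel1l-/- tissue. All Sel1l-/- arrays lay within the WT range. Its log2 fold change was -0.07 (95% interval -0.21 to 0.07, limma adjusted p = 0.648), and 0.04 with that block.

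**Figure D2:**
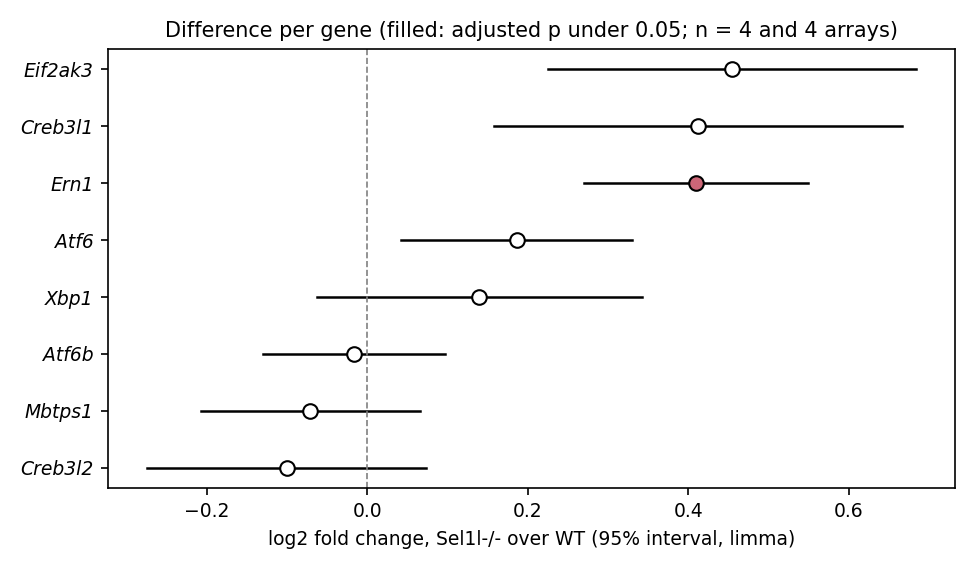
Log2 fold change of Sel1l-/- over WT (horizontal axis) for the 8 genes, with the 95% interval from limma on 4 arrays per group; the filled point passed an adjusted p of 0.05. Ern1 at 0.41 has the filled point, Eif2ak3 at 0.46 and Creb3l1 at 0.41 have wider intervals, and the intervals of Xbp1, Atf6b, Mbtps1 and Creb3l2 include 0.

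Counted together, 1 of the 8 genes was higher at an adjusted p under 0.05 and 0 were lower, against 1.04% and 0.685% of all genes. After the arrays were centred on their medians, 119 of all genes were higher and 154 lower at that threshold, where 195 and 129 were without centring. Ern1 stayed called after centring (limma adjusted p = 0.0409). At an unadjusted p under 0.05 from limma, 4 of 8 were higher (Ern1, Eif2ak3, Creb3l1 and Atf6) and 0 lower, where 7.15% and 7.85% of all genes were. The same 4 genes had all Sel1l-/- arrays above all WT arrays, and none had them all below, against 5.22% and 5.07% of all genes. With the replicate number as a block, 2 of 8 were higher (Ern1 and Eif2ak3), against 1.9% of all genes. The median log2 fold change of the 8 was 0.16 and that of all genes -0.0037. These are 8 genes chosen by function with earlier results of these data known.

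Related members were also set side by side by the log2 ratio of both genes within each array, which centring of arrays does not alter. The 3 pairs were chosen after the values were seen, so these are descriptions with no test. Atf6 had a log2 fold change 0.20 above that of its paralog Atf6b, and the ratios of the groups did not overlap. By the same measure, the change of Creb3l1 was 0.51 above that of Creb3l2, also without overlap. Within same-numbered mice the difference was 0.15, 0.25, 0.17 and 0.24 for Atf6 and 0.91, 0.23, 0.87 and 0.05 for Creb3l1. Atf6 and Creb3l1 had not overlapped on their own, and how often ratios of other genes do not overlap was not counted. For Ern1 the change was 0.27 above that of its substrate Xbp1, with overlapping ratios, and the difference within same-numbered mice was 0.29, 0.28, 0.49 and 0.03.

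**Figure D3:**
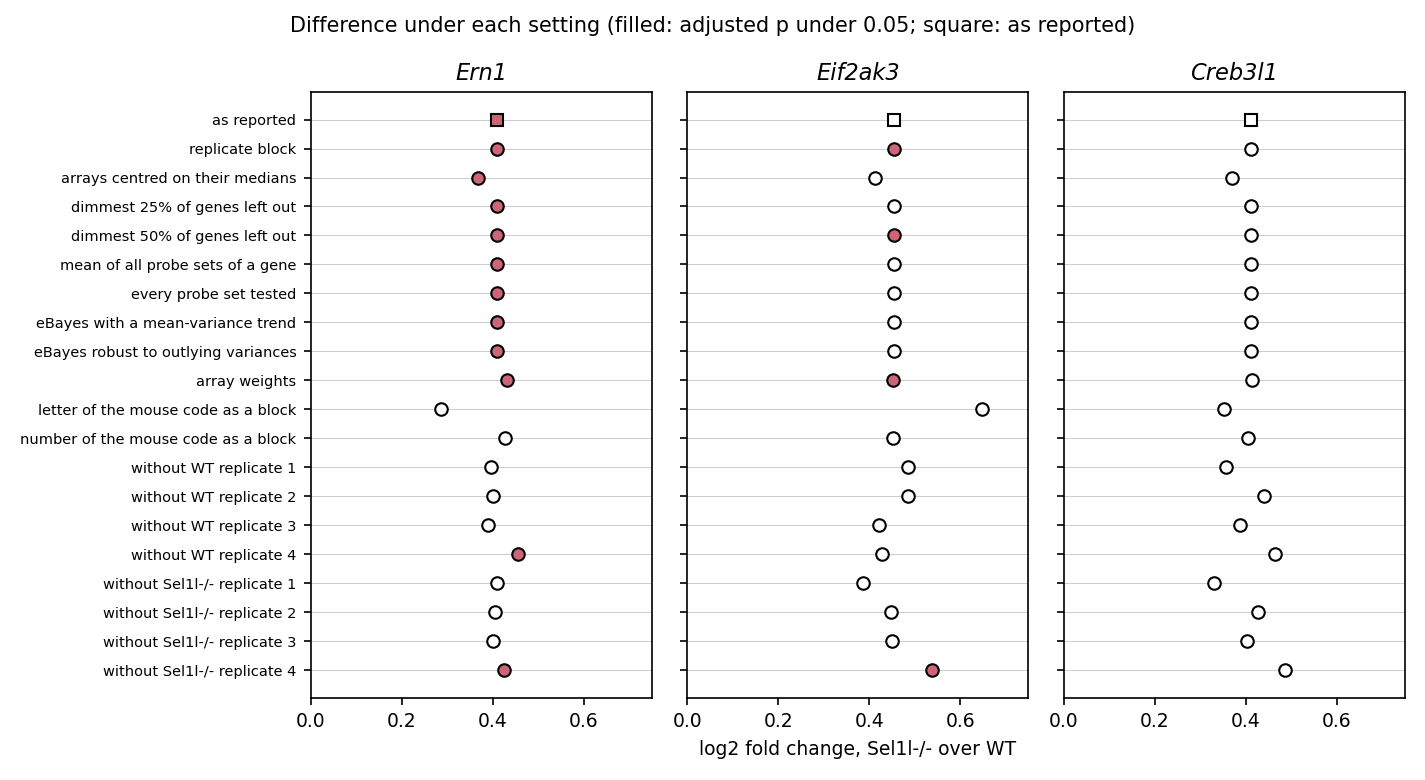
Log2 fold change of Ern1, Eif2ak3 and Creb3l1 (horizontal axes) as reported (square) and under the 19 alternatives named on the vertical axis; filled points passed an adjusted p of 0.05. Ern1 stayed between 0.29 and 0.45 and passed in 11 of the 19, Eif2ak3 stayed between 0.39 and 0.65 and passed in 4, and Creb3l1 passed in none.

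Several chaperone and folding genes downstream of the sensors rose. The lists counted here and below were chosen with earlier results of these data known. Of all genes, 1.04% were higher and 0.685% lower at an adjusted p under 0.05 from limma. At an unadjusted p under 0.05 these shares were 7.15% and 7.85%. Positive log2 fold changes were found for 9186 of 18820 genes. Of 23 measured genes known as XBP1 targets, 7 rose and none fell, all 23 had positive log2 fold changes, and their median was 0.36. Derl3, a derlin of the ER membrane, rose from 6.35 ± 0.21 to 9.78 ± 0.47 (SD, n = 4 each; limma adjusted p = 0.000516), Sec61g, a subunit of the translocon, by 0.62 (adjusted p = 0.00972) and Serp1, which stabilises proteins at the translocon, by 0.63 (adjusted p = 0.0105). Dnajc3, a cochaperone that also inhibits PERK, rose by 0.42 (adjusted p = 0.0346), a call that held in 1 of the 8 fits without 1 array (up to 0.122, without Sel1l-/- 2). Of the other partners of IRE1, 1 of 7 measured rose and none fell: Tmbim6, an ER membrane protein that restrains IRE1, went from 11.83 ± 0.05 to 12.34 ± 0.15 (SD, n = 4 each; limma adjusted p = 0.0209), and held in 2 of those 8 fits (up to 0.0773, without Sel1l-/- 2). None of 7 substrates of IRE1-dependent decay passed limma's test, or had an unadjusted p under 0.05, and their median was -0.12. Scara3, a scavenger receptor known as such a substrate, stood at -0.36 (adjusted p = 0.339).

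Around PERK, 3 of 8 measured genes rose and none fell, against 1.04% and 0.685% of all genes. Eif2s1, the gene of eIF2α, and Ddit3, the gene of CHOP, were listed too but were not measured here. Beside Dnajc3, which is in this list too, Atf4 rose from 8.07 ± 0.16 to 8.79 ± 0.19 (SD, n = 4 each; limma adjusted p = 0.0231), and held in 3 of the 8 fits without 1 array (up to 0.0818, without Sel1l-/- 3). Ppp1r15a, which directs dephosphorylation of eIF2α, rose by 0.87 (adjusted p = 0.0148) and held in 5 (up to 0.0561, also without Sel1l-/- 3). Of 21 measured ATF4 and CHOP targets, 6 rose and none fell, 17 had positive and 4 negative log2 fold changes, and their median was 0.41. Phgdh of serine synthesis, named after its values were seen, was the 1 lower at an unadjusted p under 0.05, at -0.45 (limma adjusted p = 0.217). Among the 6, Trib3, a pseudokinase that binds AKT, rose by 3.01, Ero1a, an oxidase of the ER, by 1.36 and Nupr1, a chromatin protein of stress, by 0.87 (each with adjusted p = 0.00334), and Pck2, a mitochondrial enzyme of phosphoenolpyruvate synthesis, by 1.26 (adjusted p = 0.0102).

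Of 11 measured ATF6 targets, 7 rose and none fell, against 1.04% and 0.685% of all genes, and their median was 0.79. Pdia6, a disulfide isomerase, rose by 1.08 (limma adjusted p = 0.000516), Hsp90b1, the ER form of HSP90, by 0.84 (0.00193), and Hyou1 and Hspa5, an exchange factor and the chaperone BiP it serves, by 0.87 and 0.82 (both 0.00618). In contrast, none of 7 relatives and cofactors of ATF6 and CREB3 passed limma's test, with 1 lower at an unadjusted p under 0.05, Gtf2i at -0.18 (adjusted p = 0.229). Of the 7, 5 had positive and 2 negative log2 fold changes, and the median was 0.06. None of 5 genes of SREBP proteins and their partners passed limma's test or had an unadjusted p under 0.05. Of these, the SREBP proteins are cut by the same proteases. The list had 2 positive and 3 negative log2 fold changes with a median of -0.0082, and Insig1 stood at 0.18 (adjusted p = 0.546). Of 5 measured SREBP2 targets 1 rose, Lss of cholesterol synthesis, by 0.79 (adjusted p = 0.0232), and held in 3 of the 8 fits without 1 array (up to 0.0753, without Sel1l-/- 3). Of the 5, 2 were negative, and Fdft1, also named after its values were seen, was the 1 lower at an unadjusted p under 0.05, at -0.63 (limma adjusted p = 0.187). Whether the lists differ from the sensor genes or from each other was not tested, nor was which factor acted on a listed gene here. With the code letter blocked, Derl3 alone of the called genes named here kept its call (limma adjusted p = 0.0390). With the code number blocked, Derl3, Pdia6, Hsp90b1 and Ero1a kept it (0.0144, 0.0142, 0.0376 and 0.0376).

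**Figure D4:**
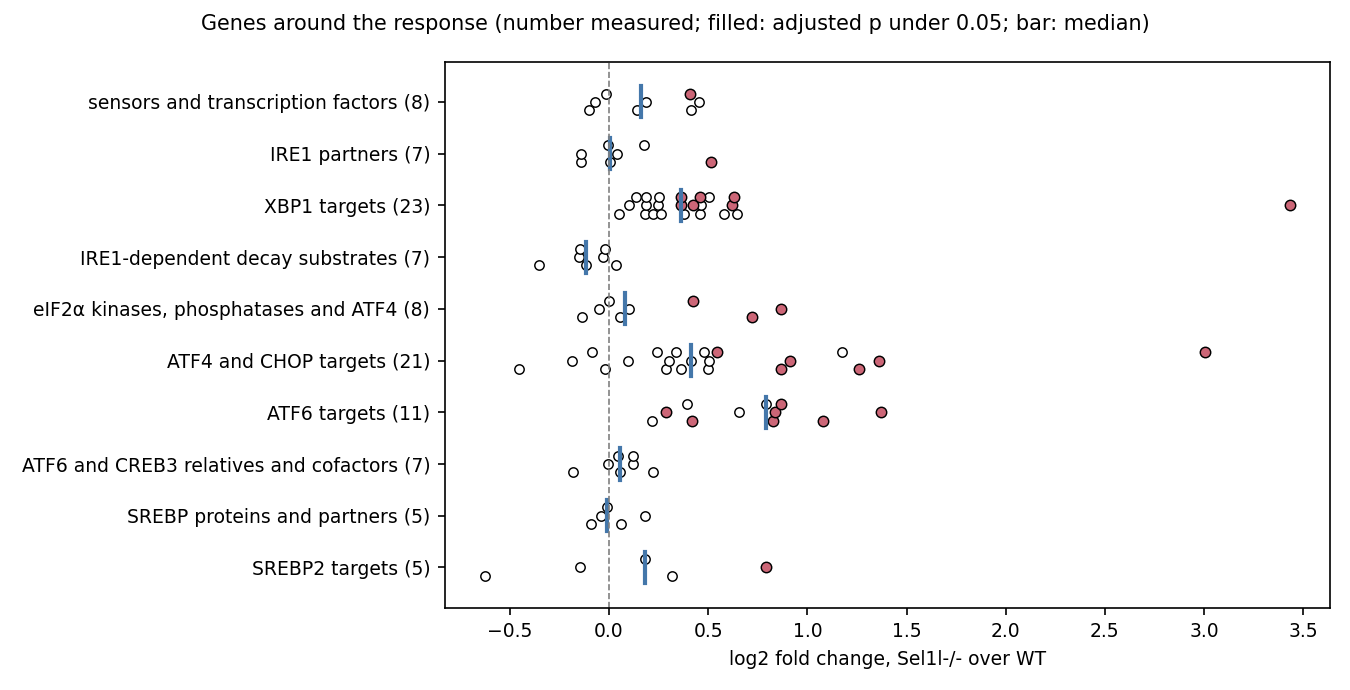
Log2 fold change of Sel1l-/- over WT (horizontal axis) for each measured gene of 10 lists around the response, with the number of genes in brackets, filled points for an adjusted p under 0.05 and a bar at the median. The medians are 0.79 for ATF6 targets, 0.41 for ATF4 and CHOP targets, 0.36 for XBP1 targets and 0.16 for the sensors and transcription factors. Differences between lists were not tested.

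Markers of cell types were read beside these values, and their part in the results was not tested. The mean log2 level of 8 adipocyte markers ran from 12.53 to 12.69 over WT arrays and from 12.26 to 12.55 over Sel1l-/- arrays, with all 8 differences negative and none past limma's threshold (1 at an unadjusted p under 0.05, Adipoq at -0.56, adjusted p = 0.0753). That of 7 macrophage markers was 10.56 to 11.20 and 10.78 to 11.56, all 7 positive with none past the threshold or under an unadjusted p of 0.05, and Mrc1 at 0.36 (adjusted p = 0.400). For 5 endothelial markers it was 10.44 to 10.60 and 9.94 to 10.31, with all 5 differences negative (-0.43 to -0.34, median -0.38). All 5 were at an unadjusted p under 0.05 and 3 were without overlap between groups. Of all genes, 7.85% were lower at an unadjusted p under 0.05 and 0.685% past limma's threshold. All Sel1l-/- arrays lay below all WT arrays for 5.07% of genes. Past limma's threshold was 1 of the 5 endothelial markers, Pecam1 at -0.39 (adjusted p = 0.0290), which was lost in each of the 8 fits without 1 array (up to 0.102, without Sel1l-/- 2). All 4 measured lymphocyte markers were negative, with a median of -0.63, and 1 passed limma's threshold, Cd2 at -0.65 (adjusted p = 0.0456), which held in 1 of those fits (up to 0.119, without WT 2).

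No measured marker of fibroblasts, plasma cells, epithelium, mesothelium or skeletal muscle passed the test. At an unadjusted p under 0.05 from limma, 2 of 6, 1 of 6, 0 of 5, 1 of 4 and 0 of 5 were lower and none higher. Of all genes, 7.85% were lower and 7.15% higher by that measure. The mean level of the 6 plasma cell markers, a cell type in which Xbp1 is essential, ran from 6.21 to 7.42 over WT arrays and from 6.17 to 7.04 over Sel1l-/- arrays. The members of these lists with the smallest p were Dpt at -0.32 (adjusted p = 0.264), Irf4 at -0.44 (0.239), Krt8 at -0.45 (0.696), Wt1 at -0.44 (0.108) and Acta1 at -0.32 (0.390). In the same order of lists, 1 of 6, 2 of 6, 0 of 5, 0 of 4 and 3 of 5 log2 fold changes were positive. The list medians were -0.05, -0.18, -0.27, -0.35 and 0.04. The mean of the 5 muscle markers lay below every array median, at 5.11 to 5.38.

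Within the groups, the 8 genes did not vary as a unit. With group means subtracted, Pearson's r over the 8 arrays was 0.83 between Ern1 and Atf6b, 0.75 between Xbp1 and Mbtps1, 0.04 between Ern1 and Eif2ak3 and -0.85 between Atf6 and Mbtps1. The 28 pairs share 8 arrays and 1 normalization, and no test was made. The genes most like Ern1 by this measure among all genes were Aqp5, a water channel (r = 0.99, Spearman's rho 0.98), Abcg3, an ABC transporter (0.99 and 0.90), the homeobox gene Hoxa9 (0.98 and 0.98), Them5, a mitochondrial thioesterase (0.98 and 0.95), and Tmem135 (0.97 and 0.90). Hoxa9 and Them5 had mean log2 levels of 4.65 and 4.75, below every array median, and Aqp5, at 6.09, lay among those medians. Over the arrays other than the 2 farthest from the median of Ern1, WT 3 and WT 4, r of the 5 genes was 0.85 to 0.95. The subtracted group means still included WT 3 and WT 4, so this r is not free of those 2 arrays. None of the 5 passed the test between genotypes, and their log2 fold changes were negative, from -0.32 for Them5 to -0.13 for Abcg3. That of Abcg3 was 0.08 without WT 4. Since they were the highest of 18819 correlations, no p is given.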

How the data were processed

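Total RNA of 8 mice was hybridised to 1-colour whole-transcript arrays, 1 per mouse, per the labels' protocols. The authors deposited log2 values per probe set, and the submitters' processing notes name RMA. The values span 1.72 to 13.9, as log2 intensities do. RMA's version is not stated. Of 35556 probe sets, 21218 named exactly 1 gene, and the one with the highest mean over the arrays represented each of 18820 genes. The 2 genotypes were fitted in limma 3.58.1 under R 4.3.3 (lmFit, then eBayes, two-sided, Benjamini-Hochberg over all genes, threshold 0.05), after the script was tested on simulated data. Tables and plots were made in Python 3.11.15 with pandas 2.3.3 and matplotlib 3.10.9. The alternatives were blocks on replicate number, code letter or code number, centred arrays, dim genes left out, other summaries of probe sets, other variance settings, array weights and leaving out each array.

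The members and lists were chosen with earlier results of these data known. Other genes were named by rule: Sel1l, for each list the called genes of smallest p, at most 4, or with none called the gene of smallest p, and the 5 most correlated with the member of smallest p. Same-numbered mice deviated together over all genes (r = 0.518, 0.107, 0.363 and 0.524), so these numbers were also used as pairs, on the basis of the values, as no label ties the mice. Different numbers reached 0.328. Nothing says that mice came from separate litters or cages. Array precision is limited by 4 arrays per group.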

Additional observations from a re-analysis of the deposited data

Results flagged for a closer look

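Among the 42 genes named, each group of 4 arrays was searched for an array that stood apart from the other 3 by more than Dixon's 95% critical value, which chance does in about 1 of 20 groups. This was so in 2 of 84 groups and for none of the 8 sensor and transcription factor genes. Hyou1 read 9.60 in WT 4 and 9.47 to 9.49 in the other WT arrays. Abcg3, one of the genes most like Ern1, read 8.03 in WT 4 and 7.11 to 7.25 in the others.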

How the results depend on the processing

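Of 152 values of the 8 genes under 19 alternatives, 138 kept direction and side of the threshold, 8 lost a call, 4 gained one and 2 changed sign. The genes past the threshold numbered 324 as reported, 725 with the replicate block, 566 with array weights, 20 with the code letter and 11 with the code number blocked, and 100 to 336 when 1 array was left out. The calls among the 8 genes numbered 1 as reported, 2 with the replicate block, with the dimmer 50% of genes left out and with array weights, 0 with either code block, and 0 to 2 without 1 array. Ern1 had a log2 fold change of 0.29 with the code letter and 0.43 with the code number blocked, and 0.39 to 0.45 without 1 array. Eif2ak3 gained the call at 0.46 with the replicate block and with the dimmer 50% left out and at 0.45 with array weights, and ranged from 0.39 to 0.54 without 1 array. With the code letter blocked, Creb3l2 was 0.087, Mbtps1 0.039 and Krt8 0.76. Abcg3 ranged from -0.23 to 0.077 without 1 array. Leaving out arrays leaves fewer to test, the code blocks leave few mice to compare, and otherwise the cause was not tested. The replicate block ended no call among the 8 genes. RMA makes arrays alike, so a change of most transcripts 1 way would not show, and signal over background was not measured.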
